A study of Mus musculus with 20 samples.

Results

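Collagen chain transcripts were measured in mouse kidney under dietary phosphate restriction. The members were 10 genes, and every probe set that the platform annotation maps to 1 of them alone was taken, which gave 19 of 12422 probe sets (and 10 of the 8251 genes named this way). The fibrillar chains Col1a1, Col1a2, Col3a1 and Col5a2 had 8 probe sets, the basement membrane chains Col4a1, Col4a2, Col15a1 and Col18a1 had 8, and the type 6 chains Col6a1 and Col6a2 had 3. All 19 passed the filter on low intensity (0 were under it), and 0 probe sets that name several genes name a member. Kidneys came from C57BL/6J mice, and each of the 20 arrays held RNA pooled from 3 mice. Genotype (normal or Hyp) was crossed with diet (control or low phosphate), which gave 4 groups of 5 arrays. In Hyp mice the Phex gene is mutated, which models X-linked hypophosphatemia, a disorder in which the kidney wastes phosphate. In each group 3 arrays held mice fed for 5 days and 2 held mice fed for 3 days, and over the series 12 arrays came from males and 8 from females. The ages of the mice are not given in the labels.

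Collagens are triple helices wound from 3 alpha chains. The fibrillar types are made mainly by fibroblasts, pericytes and smooth muscle cells and form the fibres of the interstitium, where types 1 and 3 are the bulk and type 5 sits within the fibres and controls their thickness. Type 4 forms the sheet of every basement membrane, under tubules, capillaries and the glomerulus. Types 15 and 18 carry sugar side chains and lie at the outer edge of basement membranes, and type 6 forms beaded filaments between basement membrane and interstitium. In the kidney, fibrillar chains are best known for their rise in fibrosis.

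Levels are the deposited signal intensities on a linear scale, which share a common trimmed mean. Differences are on the scale of log2 of the intensity plus 38, with the standard error (SE) of a limma fit over all 20 arrays with terms for sex and days, and a probe set was called where its adjusted p was under 0.05. Because each array is a pool, p-values measure the spread between pools. In whole kidney RNA, fewer cells of a type and less RNA per cell cannot be told apart. The tubule genes Slc34a1 (8770 to 17166) and Umod (7434 to 12084) were bright on all 20 arrays, as the tissue label requires. The 4 arrays numbered 05 to 08 in the titles, the female arrays at 5 days, of which each group has 1, stood apart. Their median Spearman correlations with the other arrays were 0.895 to 0.934, against 0.943 to 0.969 for the other 16, and their ratios of actin 3′ to 5′ signal, which reflect RNA integrity, were 1.74 to 2.61, against 1.22 to 1.98.

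On low phosphate diet, normal mice showed lower levels of 2 chains (5 arrays on each diet). Of the fibrillar chains, Col5a2, a chain of type 5, fell, and of the basement membrane chains, Col15a1, the single chain of type 15, fell. Type 4 and type 6 chains and Col18a1 were not called. In all, 2 of the 19 collagen probe sets were called, both lower, beside 16 of 8695 probe sets (0.184%), 8 of them lower. The 8 fibrillar probe sets had a median log2 difference of -0.62, 7 of them were below 0, and 7 had an unadjusted p under 0.05, beside 744 of 8695 probe sets. Among these 7 was Col3a1 102990_at (unadjusted p = 0.0058), which passed the intensity filter only through its control arrays and is given no weight. The medians were -0.16 for the 8 basement membrane probe sets and -0.13 for the 3 of type 6, and that of all 8695 probe sets was 0.01, with 47.7% below 0.

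Col5a2 (probe set 92567_at) had intensities of 496.9, 540.4, 495.8, 664.2 and 425.1 on control diet and of 259.4, 275.8, 351.4, 346.5 and 294.4 on low phosphate diet. Values are in the order of the array titles, with arrays 01 and 02 (male, 5 days) first, then 05 and 06 (female, 5 days), 11 and 12 (male, 3 days), 15 and 16 (female, 3 days) and 19 and 20 (male, 5 days). The 2 diets did not overlap. How many of all probe sets part 2 groups in this way was not counted, so lack of overlap is only a description, here and below. The means were 524 ± 88.4 and 306 ± 41.6 (SD, n = 5 each). The log2 difference was -0.71 ± 0.12 SE (adjusted p = 0.018), which is 1.63-fold lower on that scale. Leaving out 1 array ended the call for 7 of the 20 arrays (01, 02, 05, 06, 11, 15 and 16), with differences of -0.77 to -0.66 and adjusted p-values of 0.0045 to 0.087 over all 20, and without arrays 05 to 08 together the difference was -0.66 (adjusted p = 0.16).

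Col3a1, the chain of type 3 collagen, was measured by 3 probe sets. The brightest (98331_at) had 1713.1, 1668.2, 1306.7, 1420.8 and 1065.3 on control diet and 737.4, 757.2, 982.7, 883.9 and 653.3 on low phosphate diet. These 2 groups did not overlap either. The means were 1435 ± 267 and 803 ± 130 (SD, n = 5 each), and the log2 difference of -0.80 ± 0.16 SE missed the threshold (adjusted p = 0.064). The other 2 probe sets of Col3a1 differed by -0.58 ± 0.18 SE (161984_f_at) and -0.65 ± 0.21 SE (102990_at). Their means over the 20 arrays were 249 and 90.8, and neither was called. The dimmer, 102990_at, passed the filter (79.4) only through its control arrays, with means of 118.9 (normal) and 107.8 (Hyp), against 62.4 and 74.2 on low phosphate diet. Its fall is therefore given no weight, though it stays in the counts and medians of the fibrillar probe sets throughout. The difference of 98331_at was called with the set of arrays as a block in place of sex and days (adjusted p = 0.024), with a filter at the median (0.033), with trended and robust variances (0.027), and without any 1 of arrays 03, 12 and 19 (0.030 to 0.048).

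Type 1 collagen joins chains from Col1a1 and Col1a2. Col1a2 (101130_at) had 2136.5, 2744.1, 2110.4, 1542.2 and 1457.7 on control and 907.5, 1775.3, 1278, 992.6 and 1049.5 on low phosphate diet. The low phosphate arrays were below all control arrays except array 06 (female, 5 days, 1775.3). The log2 difference was -0.72 ± 0.16 SE (adjusted p = 0.10). Col1a1 (94305_at) had 3238, 1859.2, 2420.3, 1984.5 and 1930 on control and 1693.4, 840.7, 2201.7, 1682.2 and 1463.2 on low phosphate diet. Its groups overlapped, and the log2 difference was -0.56 ± 0.20 SE (adjusted p = 0.38). The other probe sets of these genes gave -0.30 ± 0.11 SE for Col1a1 (103709_at, adjusted p = 0.38) and 0.05 ± 0.18 SE for Col1a2 (161156_r_at, adjusted p = 0.98), the one fibrillar probe set above 0 in this comparison.

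**Figure D1:**
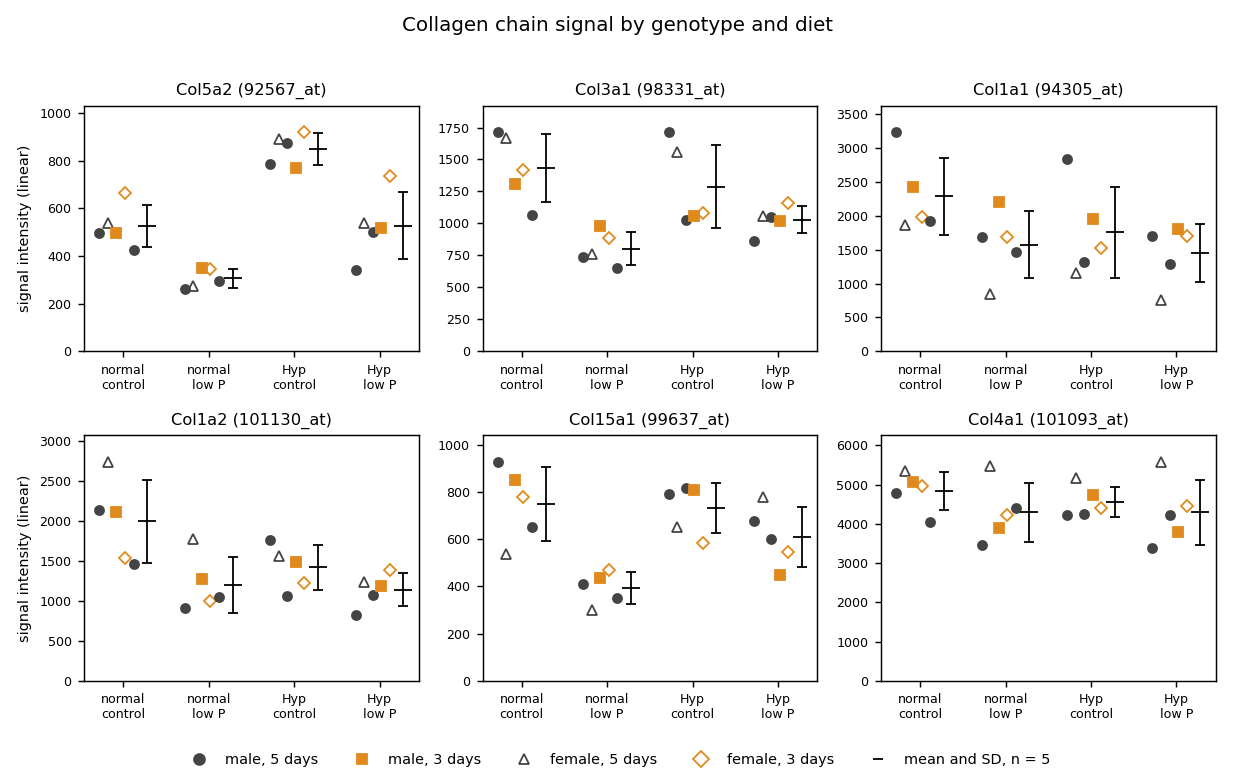
Signal intensity (linear axis from 0) of 6 collagen probe sets in the 4 groups. Each point is 1 array of 3 pooled mice, with shape and colour for sex and days, and the bars are the mean and SD of 5 arrays. Col5a2, Col3a1 and Col15a1 show no overlap between diets in normal mice, and Col5a2 shows none in Hyp mice, while Col4a1 overlaps in all 4 groups. The difference of Col3a1 in normal mice was not called, and the share of all probe sets without overlap was not counted.

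Col15a1 (99637_at) had 929.1, 538.3, 851.1, 780.6 and 651.6 on control diet and 409, 298.1, 437.7, 468.3 and 353 on low phosphate diet, again without overlap. The means were 750 ± 156 and 393 ± 68.1 (SD, n = 5 each), and the log2 difference was -0.86 ± 0.17 SE (adjusted p = 0.046), 1.82-fold lower. This call ended without any 1 of 16 of the 20 arrays (all but 05, 08, 14 and 19), with adjusted p-values of 0.014 to 0.16. Without arrays 05 to 08 together its difference was -0.88 (adjusted p = 0.061).

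Neither type 4 chain was called. Col4a1 (101093_at), the chain that pairs with Col4a2 in most basement membranes, ran from 4059 to 5356 on control and from 3474 to 5465 on low phosphate diet. Its log2 difference was -0.18 ± 0.10 SE, with a 95% interval of -0.40 to 0.03. Col4a2 (101039_at) differed by -0.11 ± 0.11 SE, with an interval of -0.34 to 0.11, so both intervals exclude a fall as large as that of Col15a1. For Col18a1, the type 18 chain from which endostatin is cut, the 5 probe sets ran from -0.24 to 0.04 and disagreed in sign.

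No type 6 probe set was called. Col6a1 differed by -0.11 ± 0.17 SE (95493_at) and -0.13 ± 0.14 SE (162459_f_at), and Col6a2 (93517_at) by -0.27 ± 0.15 SE (adjusted p = 0.64). For Col6a2 the means were 642 ± 64.8 and 529 ± 82.2 (SD, n = 5 each), with overlapping arrays. The 95% interval of the brighter Col6a1 probe set ran from -0.46 to 0.24.

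Upstream sequence was available from RefSeq (GRCm38.p6) for 8 of the 10 genes, without Col1a1 and Col5a2. The 250 bases before the annotated start are shown for the chains whose intensities were lowest against control in normal mice. Of these, Col15a1 was called and Col3a1 and Col1a2 were not. Col1a2 was placed here by its probe set 101130_at (-0.72), while its brighter probe set, 161156_r_at, differed by 0.05. Capitals mark matches to TATAAA (letters of the TATA box), to CCAAT (the CCAAT box) and to GGGCGG (the GC box), searched on both strands, and the strand of all 3 genes is plus.

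Col1a2: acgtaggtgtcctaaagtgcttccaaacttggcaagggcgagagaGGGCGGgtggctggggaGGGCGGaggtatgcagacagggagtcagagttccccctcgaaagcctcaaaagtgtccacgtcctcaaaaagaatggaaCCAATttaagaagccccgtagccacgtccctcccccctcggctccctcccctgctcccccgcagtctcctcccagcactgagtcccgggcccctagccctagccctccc

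Col3a1: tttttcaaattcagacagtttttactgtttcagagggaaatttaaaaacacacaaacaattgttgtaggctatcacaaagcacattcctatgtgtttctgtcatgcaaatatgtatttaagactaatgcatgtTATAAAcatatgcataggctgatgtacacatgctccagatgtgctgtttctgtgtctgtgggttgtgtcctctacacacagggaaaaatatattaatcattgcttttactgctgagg

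Col15a1: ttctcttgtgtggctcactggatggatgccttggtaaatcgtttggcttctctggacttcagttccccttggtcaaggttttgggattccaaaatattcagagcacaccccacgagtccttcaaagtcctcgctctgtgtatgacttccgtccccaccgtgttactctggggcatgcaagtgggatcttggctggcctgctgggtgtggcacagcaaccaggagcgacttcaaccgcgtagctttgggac

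The Col1a2 window (chr6:4505368-4505617) held CCAAT at 109 to 105 bases before the start and GGGCGG at 205 to 200 and 188 to 183 bases before it. The Col3a1 window (chr1:45311288-45311537) held TATAAA at 117 to 112 bases before the start, was 35.2% G and C and had 0 CG pairs. The Col15a1 window (chr4:47207762-47208011) held none of the 3 motifs and was 53.6% G and C. Of 32851 windows of the same length in the table, 12.4% held TATAAA, 33.8% CCAAT and 32.7% GGGCGG, and the median G and C content was 52.4%. The 3 windows thus shared none of these motifs. The type 4 genes lie head to head on chromosome 8. The annotated starts of Col4a1 (minus strand, 11312826) and Col4a2 (plus strand, 11312805) are 21 bases apart, and the genes overlap between them. The window of each thus lies past the start of the other gene, on its transcribed side. These windows had 74.4% and 73.6% G and C.

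In Hyp mice, Col5a2 fell on low phosphate diet, and no other member was called. The background was 13 of 8695 probe sets (0.15%), 10 of them lower. Col5a2 had 785.5, 890, 873.2, 770.1 and 920.2 on control diet and 342.6, 539.9, 502.1, 518.7 and 734.7 on low phosphate diet (arrays 03 and 04, male, 5 days; 07 and 08, female, 5 days; 09 and 10, male, 5 days; 13 and 14, male, 3 days; 17 and 18, female, 3 days). The diets did not overlap, and the means were 848 ± 66.3 and 528 ± 140 (SD, n = 5 each). The log2 difference was -0.68 ± 0.12 SE (adjusted p = 0.028), close to that in normal mice. The call ended without any 1 of 7 arrays (03, 04, 07, 08, 09, 13 and 14), with adjusted p-values of 0.027 to 0.11 over the 20, and without arrays 05 to 08 the difference was -0.68 (adjusted p = 0.18).

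For the other fibrillar chains the diet groups of Hyp mice lay closer together. Col3a1 (98331_at) had 1714.6, 1557.1, 1027.9, 1057.5 and 1079.9 on control and 861.1, 1054.3, 1052.9, 1021.3 and 1161.1 on low phosphate diet. Array 04 was below 03 and array 08 below 07, while the other 3 sets differed by -0.05 to 0.10 on the log2 scale, so the groups overlapped. The log2 difference was -0.28 ± 0.16 SE (adjusted p = 0.998). Col1a2 (101130_at) differed by -0.30 ± 0.16 SE and Col1a1 (94305_at) by -0.26 ± 0.20 SE, and the median of the 8 fibrillar probe sets was -0.27. Col15a1 had 791.1, 653.8, 817.3, 807.9 and 582.3 on control and 678.5, 779.2, 599.6, 448.6 and 546 on low phosphate diet. Its groups overlapped, and the difference was -0.26 ± 0.17 SE (adjusted p = 0.998). The medians of the basement membrane and type 6 probe sets were -0.10 and -0.03. The lowest of all 19 values was that of Col18a1 101880_at, a dim probe set, with -0.72 ± 0.23 SE (adjusted p = 0.76). Its low phosphate array was lower in all 5 Hyp pairs, while the other 4 probe sets of Col18a1 ran from -0.10 to 0.06. It passed the filter (79.4) only through its control arrays, with means of 112.7 (Hyp) and 89.7 (normal), against 51.8 and 66.7 on low phosphate diet. Its fall is therefore given no weight.

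Whether the diet response differed between genotypes was tested as an interaction, in which 0 of 19 collagen probe sets were called, beside 4 of 8695 (0.046%). Values above 0 mean a smaller fall in Hyp mice, and 2 of the 19 had an unadjusted p under 0.05, beside 281 of 8695. These were Col15a1 (0.61 ± 0.23 SE, unadjusted p = 0.019) and Col3a1 98331_at (0.52 ± 0.23 SE, unadjusted p = 0.040), both with an adjusted p of 0.9998. All 8 fibrillar probe sets were above 0, with a median of 0.29, and so were all 3 of type 6, while the basement membrane probe sets were split 4 and 4. The sign was not fixed for all of them, since under other settings or without 1 array it turned for Col5a2 in 8 of 31, for Col1a2 161156_r_at in 2, and for Col6a1 162459_f_at and Col6a2 in 1 each. For Col5a2 the interaction was 0.03 ± 0.17 SE, with a 95% interval of -0.33 to 0.39. A difference in response between the genotypes was therefore not shown for any chain.

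**Figure D2:**
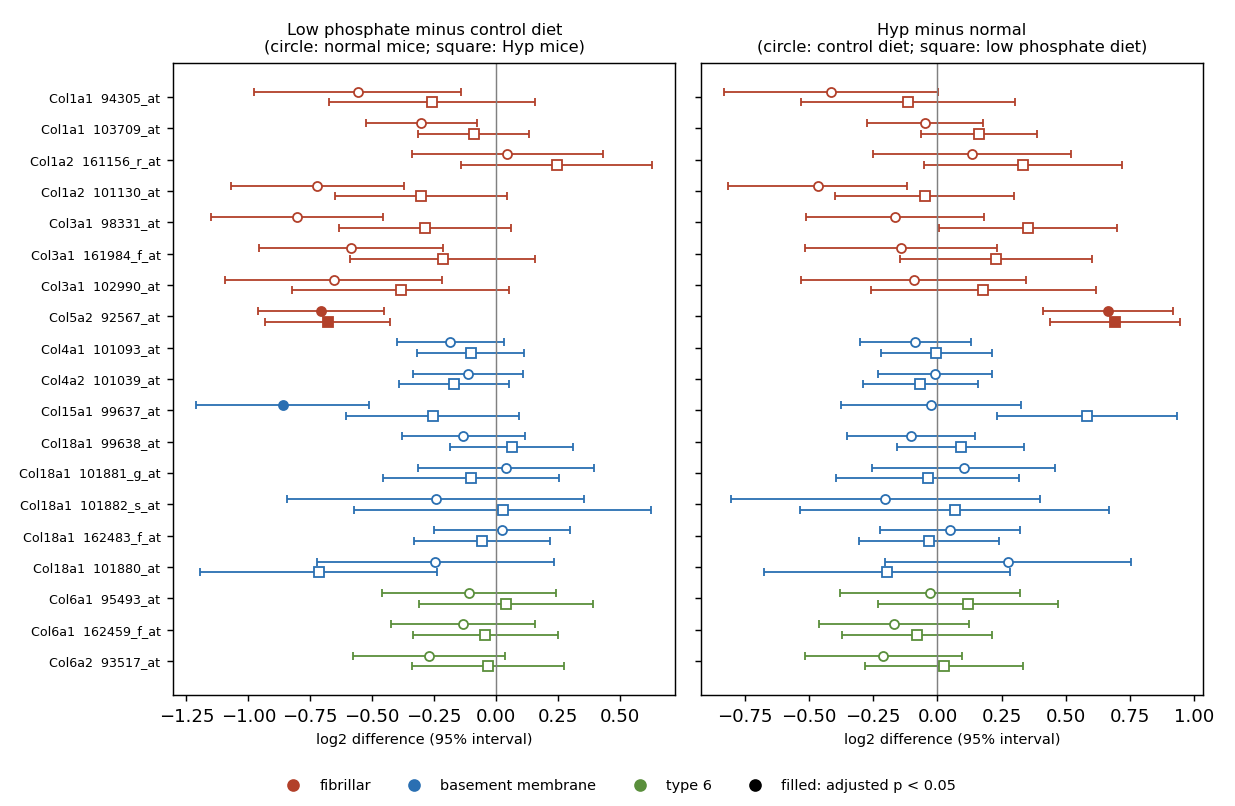
Log2 difference with its 95% interval for the 19 collagen probe sets, by diet in each genotype (left) and by genotype on each diet (right), coloured by class. Filled symbols have an adjusted p under 0.05: Col5a2 in all 4 comparisons and Col15a1 for diet in normal mice. The median of the 8 fibrillar probe sets for diet was -0.62 in normal and -0.27 in Hyp mice.

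Averaged over both genotypes, 3 collagen probe sets were called lower on low phosphate diet, beside 41 of 8695 (0.472%), 26 of them lower. Col5a2 fell by 0.69 ± 0.09 SE (adjusted p = 0.00049), Col15a1 by 0.56 ± 0.12 SE (adjusted p = 0.044) and Col3a1 (98331_at) by 0.54 ± 0.12 SE (adjusted p = 0.049), all on the log2 scale. The call of Col5a2 was kept without each of the 20 arrays (adjusted p of 0.00070 to 0.0023). Those of Col3a1 and Col15a1 ended without any 1 of 18 (all but 12 and 19) and 15 arrays (all but 05, 08, 16, 17 and 19), with adjusted p-values of 0.030 to 0.11 and 0.0078 to 0.11. Without arrays 05 to 08, Col5a2 (-0.67, adjusted p = 0.011) and Col15a1 (-0.63, adjusted p = 0.026) were called and Col3a1 was not (-0.47, adjusted p = 0.31).

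The arrays can also be set against each other within a set that shares sex, days and a run of title numbers, which gave 5 pairs of diets in normal and 5 in Hyp mice. In all 5 normal pairs 8 of the 19 collagen probe sets, from 6 genes, were lower on low phosphate diet, where 7% of the 8695 probe sets were. These were fibrillar probe sets of all 4 genes, Col15a1 and 1 probe set of Col18a1 (99638_at, -0.34 to -0.02). The fibrillar ones included Col3a1 102990_at, which is given no weight because it passed the filter only through its control arrays. In all 10 pairs 1 of 19 was lower, against 0.909% of all probe sets, and this was Col5a2, with differences of -1.11 to -0.31. Col15a1 was lower in 9 of 10 pairs, the exception being the Hyp pair of arrays 07 and 08 (0.24), and Col3a1 (98331_at) in 8 of 10.

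**Figure D3:**
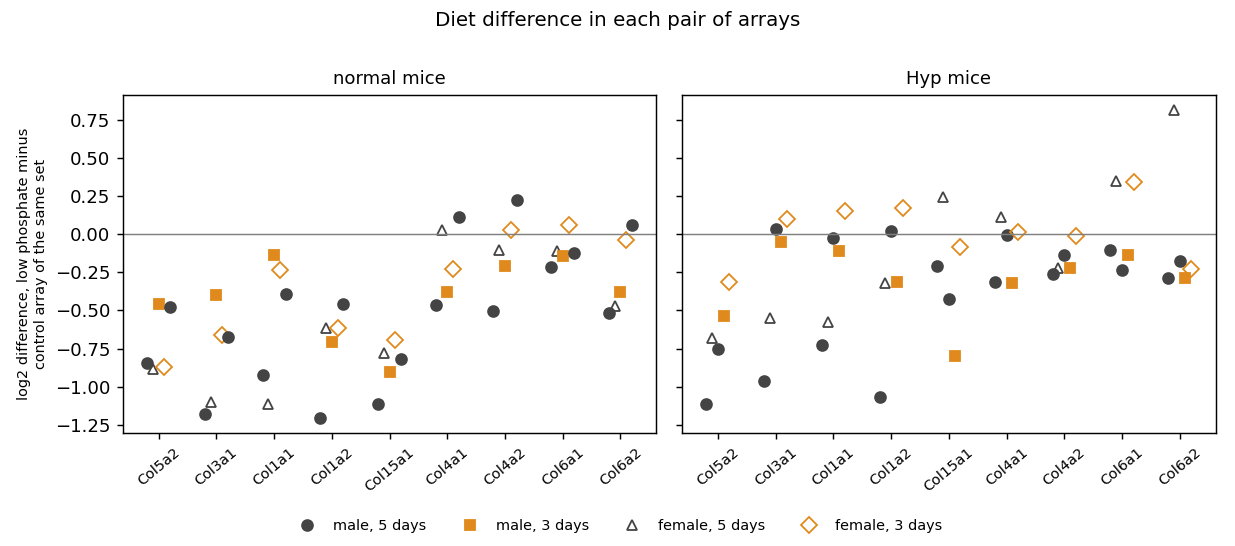
Log2 difference between the low phosphate and the control array of each set, in normal (left) and Hyp mice (right), for 9 collagen genes. Each point is 1 pair of arrays, with shape and colour for sex and days. Col5a2 lies below 0 in all 10 pairs (-1.11 to -0.31), while Col3a1, Col1a1, Col1a2 and Col15a1 lie below 0 in all 5 normal pairs and on both sides of 0 in Hyp mice. For Col1a2 this holds for 101130_at, the probe set drawn, which is not the brighter one of this gene. The brighter one, 161156_r_at, was below 0 in 2 of 5 normal pairs.

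Days on diet split the comparison into 4 arrays per diet at 3 days and 6 per diet at 5 days, with both genotypes averaged. At 3 days 0 of 19 collagen probe sets were called, beside 4 of 8695 (0.046%), and at 5 days 2 were, beside 13 (0.15%). Unadjusted p-values under 0.05 were found for 2 of the 19 at 3 days, beside 391 of 8695, and for 8 of the 19 at 5 days, beside 764. Col5a2 differed by -0.54 ± 0.13 SE at 3 days (adjusted p = 0.39) and fell by 0.79 ± 0.11 SE at 5 days (adjusted p = 0.0039). Col3a1 (98331_at) differed by -0.25 ± 0.16 SE at 3 days (adjusted p = 0.9996) and fell by 0.74 ± 0.13 SE at 5 days (adjusted p = 0.036). The Col3a1 call ended without any 1 of 16 arrays (all but 09, 10, 14 and 19; adjusted p of 0.011 to 0.13), and neither gene was called without arrays 05 to 08, which are a set of 5 days. Col15a1 differed by -0.62 ± 0.19 SE at 3 days and by -0.52 ± 0.16 SE at 5 days, without a call at either.

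The change in the diet response from 3 to 5 days was tested directly, and 0 of 8695 probe sets (0%) were called, with 291 at an unadjusted p under 0.05. Among the collagens, Col3a1 (98331_at) had a term of -0.49 ± 0.21 SE (unadjusted p = 0.036) and Col1a1 (94305_at) of -0.54 ± 0.26 SE (unadjusted p = 0.055). For Col5a2 the term was -0.25 ± 0.17 SE (unadjusted p = 0.16), and its pairs at 3 days (-0.46 and -0.87 in normal, -0.54 and -0.31 in Hyp mice) overlapped those at 5 days (-0.85, -0.88 and -0.48 in normal, -1.11, -0.68 and -0.75 in Hyp mice). A larger response at 5 days was thus not established for any chain.

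Genotype was compared on each diet, with the same control arrays as the diet comparisons. Col5a2 rose in Hyp kidneys on both diets and no other collagen was called, beside 22 of 8695 probe sets on control diet (0.253%, 14 of them higher) and 31 on low phosphate diet (0.357%, 18 of them higher). On control diet the Hyp arrays (770.1 to 920.2) lay above all normal arrays (425.1 to 664.2), and the log2 difference was 0.67 ± 0.12 SE (adjusted p = 0.025). On low phosphate diet the normal arrays ran from 259.4 to 351.4 and the Hyp arrays from 342.6 to 734.7, so that 1 Hyp array, number 04, fell within the normal range. The difference there was 0.69 ± 0.12 SE (adjusted p = 0.012). The first call ended without any 1 of 9 arrays (01, 03, 05, 07, 09, 11, 13, 15 and 19; adjusted p of 0.0093 to 0.088) and the second without array 16 or 18 (0.0017 to 0.066). Without arrays 05 to 08 together the differences were 0.66 (adjusted p = 0.13) and 0.64 (adjusted p = 0.10).

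Averaged over diets, Col5a2 was higher in Hyp mice by 0.68 ± 0.09 SE (adjusted p = 0.00030), 1 of 19 collagen probe sets beside 111 of 8695 (1.28%, 67 of them higher), and the call was kept without each of the 20 arrays. It was higher in all 8 pairs of Hyp and normal arrays of the same diet and set (0.36 to 1.01), as were 1.71% of all probe sets. The group means rank from 306 (normal, low phosphate) through 524 (normal, control) and 528 (Hyp, low phosphate) to 848 (Hyp, control). The middle groups overlapped almost fully, with 425.1 to 664.2 and 342.6 to 734.7. Without arrays 05 to 08 the averaged genotype difference of Col5a2 was 0.65 (adjusted p = 0.0058).

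No other member chain was called for genotype. Of 12 collagen genes outside the members, averaged over diets, 2 were below 0, with a median of 0.18 and 0 called. Their highest value, 0.70, was above the 0.68 of Col5a2, so a higher value in Hyp mice was not particular to Col5a2. On control diet Col15a1 differed by -0.02 ± 0.17 SE and Col3a1 (98331_at) by -0.17 ± 0.16 SE, and Col1a2 (101130_at) had the lowest value, -0.47 ± 0.16 SE (adjusted p = 0.48). On low phosphate diet the means of Col15a1 were 610 ± 126 (Hyp) and 393 ± 68.1 (normal; SD, n = 5 each), a difference of 0.58 ± 0.17 SE (adjusted p = 0.23). Col3a1 (98331_at) had 1030 ± 108 and 803 ± 130 (SD, n = 5 each), a difference of 0.35 ± 0.16 SE (adjusted p = 0.52). The 95% intervals of the type 4 chains were narrow, with -0.30 to 0.13 on control and -0.22 to 0.21 on low phosphate diet for Col4a1, and -0.23 to 0.21 and -0.29 to 0.16 for Col4a2.

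Between 3 and 5 days, irrespective of diet, 6 collagen probe sets were called, beside 3554 of 8695 (40.9%), and between females and males 6 were, beside 1445 (16.6%). Days and sex follow runs of title numbers, so they cannot be told apart from the sets of arrays. These calls came from Col1a1, Col1a2, Col18a1 and, for sex, Col4a1 (0.23 ± 0.08 SE, adjusted p = 0.0496), and 0 of them stood without arrays 05 to 08, where the calls over all probe sets fell to 32 for days and 19 for sex. The 2 probe sets of Col1a1 were called in opposite directions for days, -0.41 ± 0.15 SE (94305_at, adjusted p = 0.033) and 0.31 ± 0.08 SE (103709_at, adjusted p = 0.0051). For Col5a2 (-0.21 ± 0.09 SE, adjusted p = 0.074), Col3a1 (98331_at, 0.02) and Col15a1 (-0.04) days were not called.

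Probe sets of 1 gene differed from each other most visibly on arrays 05 to 08. Col1a2 161156_r_at had 4081.7, 4680.4, 3313 and 8230.9 there and 1173.1 to 2365.7 on the other 16 arrays, with the highest of those on arrays 09 and 10 (2365.7 and 2021.9), while Col1a2 101130_at had 2744.1, 1775.3, 1559.4 and 1239.1 there. Its difference for days was 1.13 ± 0.14 SE (adjusted p = 4.7e-05) and fell to 0.37 without arrays 05 to 08 (adjusted p = 0.17). Col18a1 101882_s_at had 467.3, 107.5, 319 and 171.5 on these arrays, against 446.2 to 1196.4 on the others, and 101881_g_at had 475.7 to 644.7 against 669 to 1408.7. The brightest Col18a1 probe set (99638_at) had 1262 to 1807 there and 1250.5 to 1973.7 elsewhere. The actin ratio was above that of all other arrays on 06, 07 and 08 (2.61, 2.55 and 2.17) but not on 05 (1.74), and its part in these values was not tested. Col18a1 probe sets also parted elsewhere, as between arrays 11 and 12, where the low phosphate array differed by -1.22 for 101880_at and by 0.52 for 101882_s_at.

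**Figure D4:**
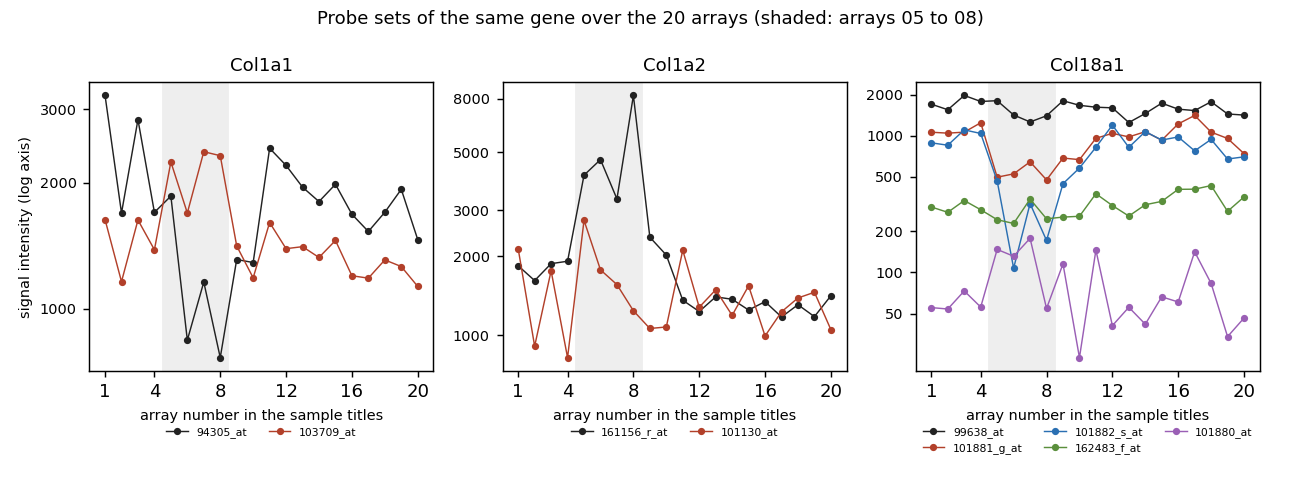
Signal intensity on a log axis of all probe sets of Col1a1, Col1a2 and Col18a1 over the 20 arrays in the order of their titles, with arrays 05 to 08 shaded. Lines join the values of 1 probe set. In the shaded arrays Col1a2 161156_r_at rises to 3313 to 8230.9 and Col18a1 101882_s_at drops to 107.5 to 467.3, while Col18a1 99638_at stays within its range on the other arrays and Col1a2 101130_at exceeds its own on array 05 (2744.1).

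Genes around collagen production were looked at as a list of 81 genes, chosen with earlier results known, of which 57 genes with 68 probe sets were tested. In the comparisons of diet and genotype and in the interaction, 0 were called in either direction, Col5a1, another chain of type 5, included. In normal mice 45 of the 68 probe sets were below 0 on low phosphate diet (median -0.09), beside 47.7% of all probe sets. In Hyp mice also 45 were (median -0.07), beside 48.8%. The 4 with the smallest p in normal mice, picked after their values were seen, were Fn1 (fibronectin, -0.42 ± 0.11 SE, adjusted p = 0.16), Col6a3 (the third type 6 chain, -0.53 ± 0.15 SE, adjusted p = 0.24), Sparc (a collagen-binding matrix protein, -0.57 ± 0.16 SE, adjusted p = 0.25) and Serpinh1 (the collagen chaperone Hsp47, -0.53 ± 0.17 SE, adjusted p = 0.31). Counted by the brightest probe set of each gene in normal mice, 8 of 11 chaperones and enzymes were below 0 (median -0.09). So were 13 of 19 matrix partners (median -0.19) and 5 of 7 turnover genes (median -0.06). Of the receptors and inducers 3 of 8 were (median 0.05), and of the other collagens 6 of 12 (median 0.00).

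For days 30 of the 68 probe sets of this list were called, or 44.1%, near the 40.9% of all probe sets, and for sex 7, or 10.3%, below the 16.6%. Over all probe sets these calls fell to 32 and 19 without arrays 05 to 08. For days 19 probe sets were higher at 5 days, those of Bmp1, Col5a1, Col8a1, Col12a1, Crtap, Dcn, Ddr2, Lama4, Lox, Loxl1, Mmp14, P4ha2, Pcolce, Pdgfa, Plod3, Postn, Smad7 and Timp1 (0.31 to 0.76). Another 11 were lower, those of Ccn2, Col4a4, Itgb1, Lama5, Lamb2, Mgp, P4ha1, Plod3, Ppib, Serpinh1 and Sparc (-0.59 to -0.28), and the probe sets of Plod3, a lysyl hydroxylase, thus went both ways. Between females and males, Bmp1, Dcn, Lama2 and Lum were higher and Col4a4, Lama5 and Plod3 lower in females.

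Markers of cells that make fibrillar collagen were not called for diet. Of 5 fibroblast and pericyte genes tested (Pdgfra, Pdgfrb, Vim, S100a4 and Des), 1 was below 0 in normal mice by its brightest probe set, Pdgfrb at -0.19 ± 0.16 SE, the median was 0.08, and 0 were called. The summed intensity of these genes was 1417 to 2513 on control and 1652 to 2894 on low phosphate diet in normal mice, and 2307 to 3326 and 1744 to 4035 in Hyp mice. For genotype averaged over diets, 0 of these 5 genes were below 0 (Hyp minus normal, median 0.21), with 0 called. Of 9 endothelial genes 8 were below 0 in normal mice (median -0.20) and 8 in Hyp mice (median -0.09), with 0 called. Of all probe sets, 47.7% and 48.8% were below 0 in these comparisons. Their sums were 6764 to 9191 and 6321 to 7714 in normal, and 7382 to 8993 and 6763 to 9290 in Hyp mice. Of 4 proximal tubule genes 4 were above 0 in normal mice, and their sums on the diets, 47702 to 53876 and 54255 to 63413, did not overlap, while those of Hyp mice did (45864 to 56001 and 44584 to 57421). Slc2a2, among these genes, was itself called for diet in Hyp mice, so the sums cannot be read as the share of these cells. The part of these shifts in the collagen values was not tested.

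Of the other marker lists (smooth muscle, podocyte, macrophage, adipocyte, thick ascending limb and collecting duct), 0 probe sets were called in the 4 comparisons of diet and genotype. Of 3 smooth muscle genes, which also mark cells that make fibrillar collagen, 2 were below 0 in normal mice on low phosphate diet (median -0.17). In the same comparison the medians were 0.18 for podocyte, -0.03 for macrophage, -0.12 for adipocyte and 0.12 for thick ascending limb genes. The collecting duct gene Aqp2 had -0.26. Over all the marker lists, the gene called in these comparisons was Slc2a2, the glucose transporter of the proximal tubule. Its means were 3046 ± 293 and 3633 ± 373 on control and low phosphate diet in normal mice, and 2170 ± 122 and 3134 ± 143 in Hyp mice (SD, n = 5 each). It rose with low phosphate in Hyp mice (0.52 ± 0.09 SE, adjusted p = 0.025) and was lower in Hyp than in normal mice on control diet (-0.48 ± 0.09 SE, adjusted p = 0.028), in each case with the sign opposite to that of Col5a2. The proximal tubule list as a whole did not share this. Of its 4 genes, 2 were below 0 for diet in Hyp mice (median 0.02) and 2 for genotype on control diet (median -0.12).

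Likeness between genes was described by Pearson's r over the 20 arrays, after each sex and days stratum's mean was taken off, and it has no p because the arrays share groups and sets. Against the mean of the other fibrillar probe sets, r for Col3a1 was 0.92 (98331_at), 0.79 (102990_at) and 0.71 (161984_f_at). It was 0.86 (103709_at) and 0.59 (94305_at, the brighter) for Col1a1. For Col1a2 it was 0.68 (101130_at) and -0.09 (161156_r_at), and for Col5a2 0.56. That mean kept other probe sets of the same gene, which Col1a1, Col1a2 and Col3a1 have and Col5a2 has not. These values are therefore not a ranking of the genes. With the fibrillar mean, Col15a1 had 0.80, Col4a2 0.71 and Col4a1 0.58, while the probe sets of Col6a1 and Col6a2 had 0.34 to 0.41. Outside the members, the 5 genes most like the fibrillar mean were Col6a3 (0.89), Atp6v0a2 (0.89), Rflnb (0.86), Kdelr3 (0.86) and Cd93 (0.86). Those most like the basement membrane mean were Serpinh1 (0.88), Idh3a (0.86), F2r (0.83), Tcf21 (0.83) and Tubb5 (0.79). Of these 10 genes 0 were called for diet. Diet and genotype differences were not taken off before r was computed, so the ranking favours genes that fall with diet as the class means do. The direction of the 10 genes was thus largely set by how they were picked and is no separate result. In normal mice their differences ran from -0.59 (Tcf21, adjusted p = 0.11) to -0.17 (Idh3a, adjusted p = 0.74).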

How the data were processed

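Of the deposited values, 1 intensity for each probe set and array was used, linear and with a trimmed mean (2% off each end) of 500.254 to 500.309. This common scaling was read from the values and is not stated in the labels. The software and background step are not given in the sources used here. No 2 arrays were identical (0 pairs), 0 per-sample columns went unused, and with no depth given the precision rests on the number of arrays. After 66 control probe sets were dropped, 12422 remained, of which 10833 name 1 gene, 396 several and 1193 none in the platform annotation. RefSeq gene numbers matched 10817 of the first kind and changed 0 symbols.

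Before log2, 38 (the 20th percentile over the table) was added, so changes of dim probe sets are understated. A filter at the 30th percentile of the means (79.4) kept 8695. The fit, in limma 3.58.1 (R 4.3.3) over the 20 arrays, held 4 groups and 4 strata of sex and days, with 13 residual degrees of freedom, or 12 where a diet by days term was added. Variances were moderated by empirical Bayes. P-values are two-sided, adjusted by Benjamini-Hochberg over the 8695 probe sets of a comparison, with a threshold of 0.05. The steps were tested on simulated data.

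The genes named were the member genes, genes of a list on collagen production, partners and turnover that passed in any comparison, and the 5 genes most like the mean of the fibrillar and of the basement membrane probe sets. Fn1 and the cell markers with values (Slc34a1, Umod, Pdgfrb, Aqp2 and Slc2a2) are named outside this rule, after their values were seen. The members, lists and tests were chosen with earlier results of these data known. Alternatives changed the offset (to 1), the scaling (quantile), the filter (none, or at the median), the variance model (trended and robust), the terms (none for sex and days, or the set of arrays as a block) and the arrays used (the 2 groups compared alone, each sex alone, arrays 05 to 08 out, arrays 09, 10, 19 and 20 out, each array out in turn).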

Additional observations from a re-analysis of the deposited data

Results flagged for a closer look

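Of 76 combinations of a collagen probe set and a group of 5 arrays, 7 held an array whose gap to the nearest other, divided by the group's range, was above 0.71. Chance alone gives about 1 in 20. All 7 were arrays of the set 05 to 08 (female, 5 days).

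For Col1a2 (161156_r_at), the far array was 05 in normal mice on control diet (4081.7), 06 in normal mice on low phosphate diet (4680.4) and 08 in Hyp mice on low phosphate diet (8230.9). Col1a1 (103709_at) was high on array 08 in Hyp mice on low phosphate diet (2323.1).

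Col18a1 was low on array 05 in normal mice on control diet for 101881_g_at (497.8) and high on array 06 in normal mice on low phosphate diet for 101880_at (131.4). Col6a2 was low on array 07 in Hyp mice on control diet (309.4).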

How the results depend on the processing

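None of the 11 collagen calls in the diet and genotype comparisons changed sign under the alternatives run. Counts that moved by over 1.5 times were these. For diet in normal mice the count of 2 collagen probe sets was 1 with an offset of 1, quantile normalization or no filter, and 0 without terms for sex and days, without arrays 05 to 08, without arrays 09, 10, 19 and 20, in males only, in females only and with the 2 groups compared alone. For diet in Hyp mice and genotype on control diet the count of 1 was 0 under those last 6 settings, and for genotype on low phosphate diet under 5 of them (it was 1 without arrays 09, 10, 19 and 20). For diet averaged over genotypes, 3 became 1 with an offset of 1, no filter, no terms for sex and days and without arrays 09, 10, 19 and 20, and 0 in males or females only. The averaged genotype count of 1 was 0 in males or females only. For diet at 5 days, 2 became 1 with no filter and 0 without arrays 05 to 08, in males only and in females only. For days, 6 became 1 without terms for sex and days and 0 without arrays 05 to 08 or in males only, and for sex, 6 became 0 without those terms or arrays. The cause was not tested. Leaving out 1 array gave 0 to 3 for diet in normal mice, 0 to 1 for diet in Hyp mice and for genotype on each diet, 1 to 3 for diet averaged, 1 to 2 for diet at 5 days, 4 to 6 for days and 2 to 5 for sex. Of 190 values of a probe set in a comparison other than days and sex, 83 turned sign in at least 1 setting, 0 of them called, Col5a2 in the interaction included. Among the diet differences of the fibrillar and type 4 chains and Col15a1 within a genotype, sign reversed for Col1a2 161156_r_at, by diet in normal mice (-0.0060 without arrays 09, 10, 19 and 20, -0.022 in males, and -0.067 to 0.11 without 1 array each, below 0 without array 16 or 19) and in Hyp mice (-0.018 without arrays 05 to 08, -0.074 in males), and in females by diet in Hyp mice for Col1a1 103709_at (0.055), Col4a1 (0.065) and Col15a1 (0.077). With the set of arrays as a block, the diet difference of Col3a1 (98331_at) in normal mice passed (adjusted p = 0.024), as did that of Col1a1 (94305_at) at 5 days (adjusted p = 0.027), and no member's call in the diet and genotype comparisons was lost. Col1a2 (101130_at) passed for diet averaged with a filter at the median (adjusted p = 0.038), trended and robust variances (0.037) or without array 18 (0.029). Over all probe sets, the block moved the count from 16 to 58 for diet in normal mice and from 41 to 97 for diet averaged. By replicate number, no paired analysis was possible because the labels give none that groups share, and arrays were paired and blocked by set. Dim probe sets such as Col18a1 101880_at (80.2 on average) are the least precise.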
